A study of Mus musculus with 8 samples.

Results

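The ubiquitin-conjugating enzyme genes were examined in 2 cell populations sorted from mouse bone marrow. The genes were chosen by symbol: every listed gene whose symbol starts with Ube2 was taken, which gave 34 of the 18790 named genes in the deposited tables. Of these 34 genes, 32 passed the filter on low counts and were tested among 11965 genes, and the other 2, Ube2d2b and Ube2u, were not. One symbol in the set, Ube2cbp, belongs to a ubiquitin ligase that was named for binding a conjugating enzyme, and it was kept because the choice was made by symbol.

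RNA came from sorted cells of C57BL/6 mice carrying the Csf1r-EGFP transgene, in which the Csf1r promoter, active in the monocyte and macrophage lineage, drives green fluorescent protein. All of the mice were untreated, and marrow was flushed from the femur before staining. The CD11b+ population was sorted as CD11b+F4/80+Ly6G-GFPloVCAM1+, and the CD11b- population as CD11b-F4/80+GFP+VCAM1+. Each population had 4 biological replicates, so 8 libraries entered every comparison, made with SmartSeq2, which copies whole transcripts from small RNA inputs. The age and sex of the mice, and the number of mice behind each replicate, are not stated in the labels. The labels set the word macrophage in quotation marks for both sorts.

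Named genes received 36517568 to 47844998 counts per library in the CD11b+ sort and 27337092 to 34996595 in the CD11b- sort. Levels are given as CPM, each library's counts scaled to the same total, and a floor of 3 counts equals 0.0627 to 0.110 CPM. Marker genes of several cell types were measured beside the Ube2 genes. The 16 erythroid markers summed to 888 to 1583 CPM in CD11b+ libraries and to 43490 to 58107 CPM in CD11b- libraries. The 14 granulocyte markers summed to 131659 to 153035 CPM in CD11b+ libraries, against 659 to 6928 CPM in CD11b- libraries, where replicates 1 and 2 were highest. The 7 eosinophil markers summed to 6718 to 19162 CPM in CD11b+ libraries and 71.2 to 470 CPM in CD11b- libraries. The 18 cell cycle genes summed to 7195 to 7686 CPM in CD11b+ libraries and 19400 to 22773 CPM in CD11b- libraries. The 11 B cell precursor markers summed to 53.2 to 131 CPM in CD11b+ libraries and 1146 to 2317 CPM in CD11b- libraries. The 15 resident macrophage markers summed to 1093 to 1115 CPM in CD11b+ libraries and 566 to 970 CPM in CD11b- libraries, and 3 of them were higher and 2 lower in CD11b+ cells. Their median log2 fold change, CD11b+ over CD11b-, was -0.64, so the sum and the median pointed in opposite directions. The called share was 33.3%, against 29.7% of all tested genes. No gene of these lists was at 0 in all 4 libraries of a group.

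Ubiquitin is a small protein that cells attach to other proteins in 3 steps. An activating enzyme charges it, a conjugating enzyme carries it, and a ligase brings the charged conjugating enzyme to the target. The conjugating enzyme often decides whether a single ubiquitin or a chain is built and through which lysine the chain grows, and related enzymes carry the ubiquitin-like proteins SUMO, NEDD8 and ISG15. In bone marrow the family is best known for driving exit from mitosis in dividing precursors and for removing proteins and organelles while red cells mature.

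Of the 32 tested Ube2 genes, 10 were lower and 2 were higher in CD11b+ cells, and 20 did not pass the test. The genes lower in CD11b+ cells were Ube2l6, Ube2o, Ube2h, Ube2c, Ube2s, Ube2r2, Ube2e3, Ube2b, Ube2t and Ube2v1. Those higher in CD11b+ cells were Ube2w and Ube2g2. Calls rest on edgeR's quasi-likelihood test with Benjamini-Hochberg adjustment over all tested genes at 0.05, and fold changes are CD11b+ over CD11b-. The called share was 37.5%, against 29.7% of all tested genes. By direction, 31.2% of tested Ube2 genes were lower in CD11b+ cells against 15.0% of all genes, and 6.25% were higher against 14.6%. The groups did not overlap in CPM for 14 of the 32 genes (43.8%), against 36.5% of all tested genes. Without CD11b- replicates 1 and 2, the CD11b- libraries with the most granulocyte marker CPM, 3 Ube2 genes were higher and 10 lower, and of all genes 1772 were higher and 1533 lower, against 1751 and 1798 with every library. The median log2 fold change was -0.04 over the Ube2 genes and -0.01 over all tested genes. In sorted bulk RNA, fewer cells of a type and less RNA per cell cannot be told apart.

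**Figure D1:**
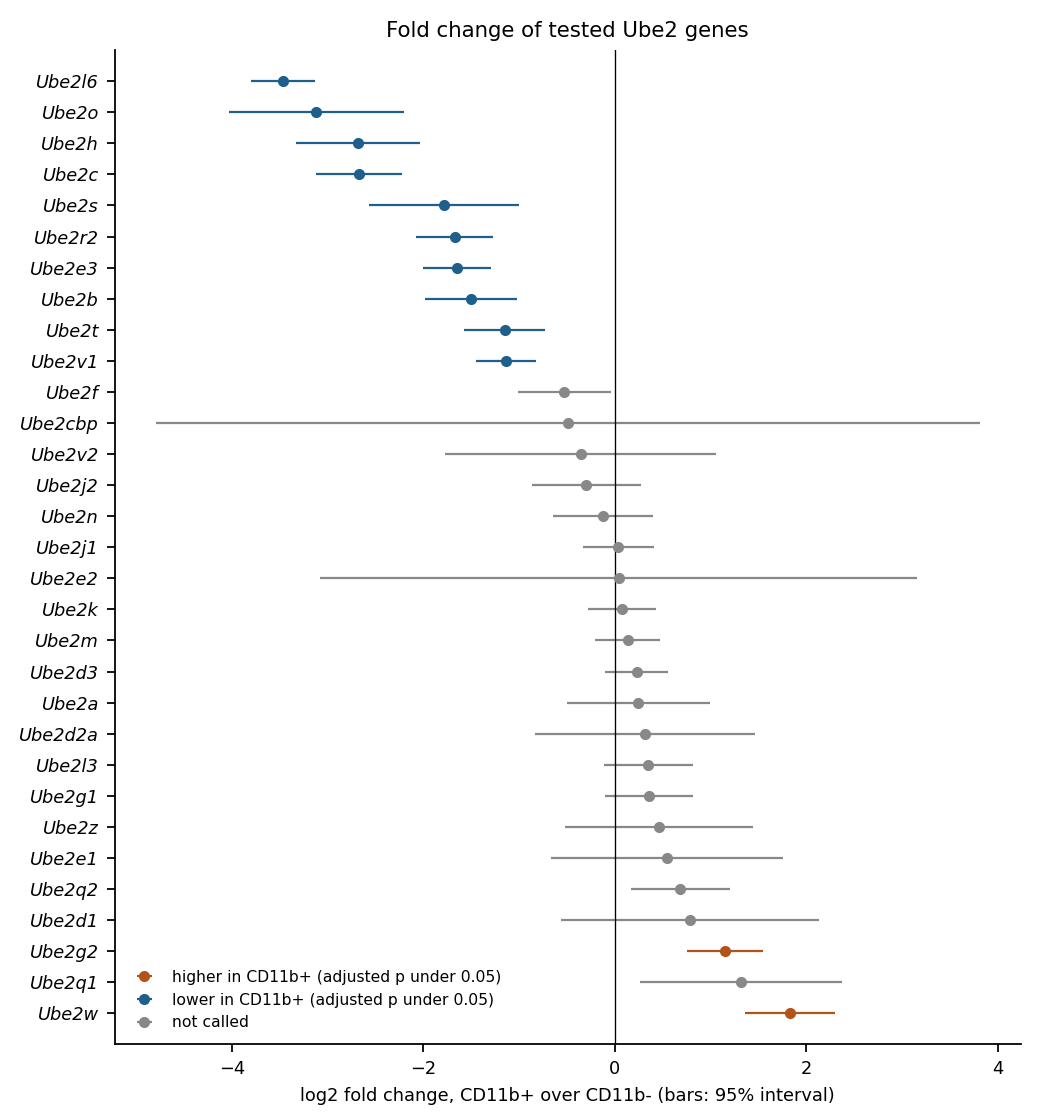
Log2 fold change (CD11b+ over CD11b-, horizontal axis) of tested Ube2 genes, with bars for the 95% interval; orange marks genes higher and blue genes lower in CD11b+ cells at an adjusted p under 0.05, and grey marks genes not called. The 10 blue genes lie between -3.47 and -1.14, the 2 orange ones at 1.15 and 1.83, and the widest intervals belong to Ube2cbp and Ube2e2.

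The promoter windows of 4 genes are shown because they belong to the ISG15 and the dividing-cell members that the results turn on: Ube2l6 and the gene of the modifier it carries, Isg15, and Ube2c and Ube2t. Each window runs from 250 bases before to 50 bases after the annotated start of the gene, 5′ to 3′ on the strand of the gene, from RefSeq on GRCm38.p6. Capitals mark matches, on either strand, to the letters of 4 motifs: the cell cycle homology element (TTTGAA or TTCGAA), the CCAAT box (CCAAT), an interferon response type repeat (GAAA, any 2 bases, GAAA) and a GATA site (AGATAA or TGATAA).
Ube2l6, chr2:84798578-84798877, plus strand: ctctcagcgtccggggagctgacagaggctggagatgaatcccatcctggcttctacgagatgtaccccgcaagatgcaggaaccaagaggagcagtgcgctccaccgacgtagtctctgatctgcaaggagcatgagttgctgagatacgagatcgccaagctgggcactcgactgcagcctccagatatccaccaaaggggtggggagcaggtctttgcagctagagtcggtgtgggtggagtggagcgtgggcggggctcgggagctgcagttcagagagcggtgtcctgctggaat
Isg15, chr4:156200769-156201068, minus strand: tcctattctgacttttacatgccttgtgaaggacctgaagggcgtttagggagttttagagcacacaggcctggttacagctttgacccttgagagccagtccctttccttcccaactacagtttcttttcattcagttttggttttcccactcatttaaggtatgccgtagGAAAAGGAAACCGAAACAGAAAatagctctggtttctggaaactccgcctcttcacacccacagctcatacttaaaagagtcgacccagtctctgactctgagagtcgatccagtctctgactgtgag
Ube2c, chr2:164769679-164769978, plus strand: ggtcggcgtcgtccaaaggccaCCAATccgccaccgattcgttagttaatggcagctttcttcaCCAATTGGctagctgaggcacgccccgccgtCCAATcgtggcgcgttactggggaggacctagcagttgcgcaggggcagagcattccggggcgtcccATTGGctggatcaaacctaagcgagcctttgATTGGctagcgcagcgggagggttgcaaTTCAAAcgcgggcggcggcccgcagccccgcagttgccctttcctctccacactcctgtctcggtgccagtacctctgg
Ube2t, chr1:134962315-134962614, plus strand: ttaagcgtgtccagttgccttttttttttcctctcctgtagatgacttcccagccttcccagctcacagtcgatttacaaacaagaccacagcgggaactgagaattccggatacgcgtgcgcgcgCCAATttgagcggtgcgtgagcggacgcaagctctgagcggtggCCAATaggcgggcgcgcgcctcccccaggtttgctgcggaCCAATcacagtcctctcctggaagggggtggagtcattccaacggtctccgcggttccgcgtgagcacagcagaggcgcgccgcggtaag

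The Isg15 window held 3 overlapping matches to the interferon response type repeat, whose first bases lie 78, 72 and 66 bases before the start. At least 1 such match was found in 3.44% of 32851 RefSeq promoter windows and 3 or more in 0.0152%. The Ube2l6 window held no match to any of the 4 motifs, which says only that these letters are not in this window. The Ube2c window held 6 CCAAT matches, some of which share bases with a match on the other strand, and 1 cell cycle homology match on the minus strand, whose first printed base lies 29 bases before the start. The Ube2t window held 3 CCAAT matches, at 124, 80 and 40 bases before the start. A CCAAT match occurred in 37.4% of all windows and 3 or more in 3.37%, and a cell cycle homology match occurred in 19.2%. No cell cycle homology match lay in the Ube2t window. Of the windows not printed, that of Ube2s held the cell cycle homology letters 162 bases before its start, those of Uba7 and Herc6 held them on the minus strand at 230 and 142 bases before the start and held no interferon response type repeat, and 1 of the 2 Ube2h windows held AGATAA at 204 bases before its start, a motif found in 18.6% of windows. RefSeq windows were matched by symbol for 27 of the 34 Ube2 genes and 8 of the 12 called ones. These matches are descriptions of letters and not of bound sites.

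Ube2l6 had the highest level per kilobase of exon in both sorts and carried the largest fold among the called Ube2 genes. It encodes the conjugating enzyme for ISG15, an interferon-induced ubiquitin-like protein. Ube2l6 is also counted among the erythroid members of the family. Ube2l6 measured 284.6, 289.4, 301.9 and 287.4 CPM in the 4 CD11b+ libraries and 2906.5, 3322.2, 3441.2 and 3569.1 CPM in the 4 CD11b- libraries. The CD11b+ libraries lay within a narrow band and every CD11b- library stood far above them. The log2 fold change was -3.47 (SE 0.15), an 11.1-fold lower level in CD11b+ cells (edgeR adjusted p = 1.35e-06).

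Of the 5 further genes listed for the ISG15 system, 4 were lower in CD11b+ cells as well (80.0%, against 15.0% of all tested genes). The median log2 fold change of the 5 was -2.76, against -0.01 over all tested genes. Isg15, the modifier itself, measured 3.75, 4.46, 7.44 and 4.41 CPM in CD11b+ libraries against 129.7, 93.4, 99.2 and 120.5 CPM in CD11b- libraries. Its log2 fold change was -4.42 (SE 0.28, edgeR adjusted p = 3.91e-06). Uba7, the enzyme that activates ISG15, measured 48.6, 30.2, 63.1 and 114.7 CPM in CD11b+ libraries and 305.9, 358.1, 334.4 and 321.0 CPM in CD11b- libraries. Replicate 4 was the highest CD11b+ library for Uba7, yet the groups did not overlap, and the log2 fold change was -2.33 (SE 0.35, edgeR adjusted p = 0.000697).

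Herc6, the main ISG15 ligase of mice, lay between 7.65 and 22.9 CPM in CD11b+ libraries and between 59.0 and 138.4 CPM in CD11b- libraries, a log2 fold change of -2.76 (SE 0.39, edgeR adjusted p = 0.000468). Usp18, the protease that removes ISG15, lay between 6.54 and 9.20 CPM in CD11b+ libraries against 79.7 to 101.1 CPM in CD11b- libraries, a log2 fold change of -3.45 (SE 0.23, edgeR adjusted p = 5.2e-06). Trim25, a ubiquitin ligase that can also attach ISG15, did not pass the test. Its levels of 6.65 to 20.3 CPM in CD11b+ libraries and 9.26 to 33.3 CPM in CD11b- libraries overlapped (log2 fold change -0.65, 95% interval -1.84 to 0.54, edgeR adjusted p = 0.421). The source of these transcripts within each sort, including the erythroid and B cell precursor markers that were higher in the CD11b- libraries, was not tested.

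**Figure D2:**
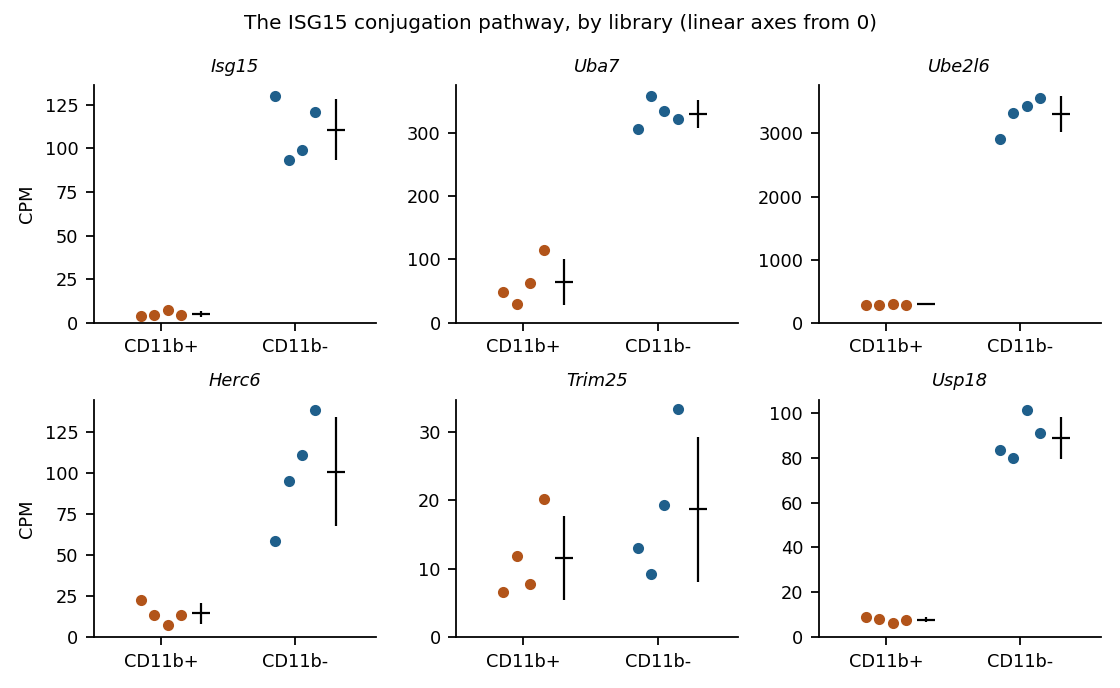
CPM (vertical axes, linear from 0) of Ube2l6 and 5 further genes of ISG15 conjugation in each library, CD11b+ left in orange and CD11b- right in blue, with the mean and SD (n = 4 each) beside the points. Isg15, Uba7, Ube2l6, Herc6 and Usp18 separate completely, with CD11b+ below CD11b-, and Trim25 overlaps.

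The close relative Ube2l3 was not called. It serves ligases of the HECT and RING-between-RING classes, and it measured 129.4, 131.8, 111.2 and 100.8 CPM in CD11b+ libraries against 88.9, 132.5, 66.7 and 97.5 CPM in CD11b- libraries. The groups overlapped, and the log2 fold change was 0.35 (95% interval -0.12 to 0.81, edgeR adjusted p = 0.255). Reads of Ube2l3 may be shared with 8 annotated near-identical copies, and its exons overlap those of Ydjc on the other strand over 1670 of 5841 bases, so its level is uncertain. The ratio of Ube2l6 to Ube2l3 CPM within a library, a measure added after the data were examined and not scaled for length, was 2.20 to 2.85 in CD11b+ cells and 25.1 to 51.6 in CD11b- cells. This ratio differed by -3.84 on the log2 scale (two-sided exact permutation test, p = 0.0286, the smallest that 4 against 4 libraries allow, 0.0449 after adjustment over 11 ratios). Because it sets a called gene against an uncalled one, it largely restates the edgeR result, as do the later ratios of this kind.

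The conjugating enzymes for NEDD8 did not pass the test. Ube2m, which charges most cullins with NEDD8, lay at 103.2 to 141.1 CPM in CD11b+ libraries and 109.5 to 135.2 CPM in CD11b- libraries, with overlap (log2 fold change 0.14, 95% interval -0.20 to 0.47). Ube2f, the second NEDD8 enzyme, lay at 56.4 to 65.6 CPM in CD11b+ libraries and 64.1 to 123.9 CPM in CD11b- libraries (log2 fold change -0.53, edgeR adjusted p = 0.102).

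Among 16 genes of the SUMO system, 2 were higher and 3 lower in CD11b+ cells, with a median log2 fold change of -0.09; the called share was 31.2%, against 29.7% of all tested genes. Sumo3 was higher in CD11b+ cells at 254.2 to 404.4 CPM against 149.5 to 268.3 CPM in CD11b- cells (log2 fold change 0.88, edgeR adjusted p = 0.0127). Senp7, a SUMO protease, was lower in CD11b+ cells at 18.9 to 28.3 CPM against 35.8 to 75.6 CPM in CD11b- cells (log2 fold change -1.30, edgeR adjusted p = 0.00617). Calls of the SUMO protease gene Senp3 (log2 fold change 1.40) and of the SUMO ligase gene Ranbp2 (-1.04) were lost without single libraries, Senp3 in 7 and Ranbp2 in 5 of 8 such fits. Of 12 NEDD8 genes, with a median log2 fold change of -0.03, 1 was called (8.33%, against 29.7% of all tested genes). It was Dcun1d1, which helps pass NEDD8 to cullins. Dcun1d1 was lower at 16.1 to 19.2 CPM in CD11b+ cells against 49.9 to 67.2 CPM in CD11b- cells (log2 fold change -1.65, edgeR adjusted p = 0.000281). Nedd8 itself lay at 102.5 to 142.7 CPM in CD11b+ libraries and 108.8 to 133.4 CPM in CD11b- libraries.

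Ube2c and Ube2s, which start and extend ubiquitin chains for the anaphase-promoting complex, were both lower in CD11b+ cells. Ube2c measured 143.4, 116.6, 135.0 and 151.8 CPM in CD11b+ libraries against 659.9, 844.7, 888.3 and 1196.5 CPM in CD11b- libraries. The groups were far apart, with CD11b- replicate 4 highest. The log2 fold change was -2.67 (SE 0.20), a 6.39-fold lower level in CD11b+ cells (edgeR adjusted p = 1.01e-05). Ube2s measured 9.86, 8.17, 11.5 and 6.18 CPM in CD11b+ libraries and 30.5, 23.3, 39.5 and 33.0 CPM in CD11b- libraries. Its groups did not overlap either, and its log2 fold change was -1.79 (SE 0.35, edgeR adjusted p = 0.00345).

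Dividing-cell genes moved in the same direction: 16 of the 18 cell cycle genes were lower in CD11b+ cells (88.9%, against 15.0% of all tested genes). Log2 fold changes ran from -2.35 to -0.22 over all 18, with a median of -1.40. In CD11b- cells the 18 genes summed to a mean of 20939 CPM, of which Rrm2 alone gave 5485 CPM. Mki67 came nearest to Ube2c, with a log2 fold change of -2.35. Ube2c differed by more than the sum of the 18 genes did. Per library it equalled 1.52% to 2.04% of the summed CPM of the 18 genes in CD11b+ cells and 3.40% to 5.25% in CD11b- cells, a difference of -1.20 on the log2 scale (exact permutation p = 0.0286, adjusted 0.0449). Ube2s equalled 0.0831% to 0.160% of that sum in CD11b+ cells and 0.114% to 0.187% in CD11b- cells, with overlap (exact permutation p = 0.229, adjusted 0.229). Exons of Ube2c overlap those of Tnnc2 on the other strand over 592 of 2600 bases, and Tnnc2 was at 0 in the CD11b+ libraries and at most at 3.80 CPM in the CD11b- libraries. Exons of Ube2s overlap those of Rpl28 on the other strand over 183 of 5141 bases. Rpl28 lay at 1.86 to 2.59 CPM in CD11b+ libraries and 2.97 to 4.24 CPM in CD11b- libraries.

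Of 17 genes of the anaphase-promoting complex and its regulators, 6 were lower and 1 higher in CD11b+ cells. That is 41.2% called, against 29.7% of all tested genes, with a median log2 fold change of -0.34. Fzr1, the coactivator that works with the complex in late mitosis and G1, measured 227.0, 266.1, 249.3 and 232.6 CPM in CD11b+ libraries and 1703.4, 2123.6, 2426.6 and 2131.8 CPM in CD11b- libraries. Its log2 fold change was -3.07 (SE 0.18, edgeR adjusted p = 2.81e-06), beside -2.67 for Ube2c. Cdc20, the coactivator of early mitosis, lay at 264.7 to 365.6 CPM in CD11b+ libraries against 503.7 to 766.8 CPM in CD11b- libraries (log2 fold change -1.02, edgeR adjusted p = 0.00296). Fbxo5, an inhibitor of the complex, was at 173.1 to 216.9 CPM in CD11b+ libraries against 584.7 to 959.0 CPM in CD11b- libraries (log2 fold change -1.89, edgeR adjusted p = 6.58e-05). Among subunits, Anapc5 was lower (log2 fold change -0.80, edgeR adjusted p = 0.00111), and the 1 gene of the list higher in CD11b+ cells was the catalytic subunit gene Anapc11 (0.84, edgeR adjusted p = 0.0137), named after its value was seen.

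**Figure D3:**
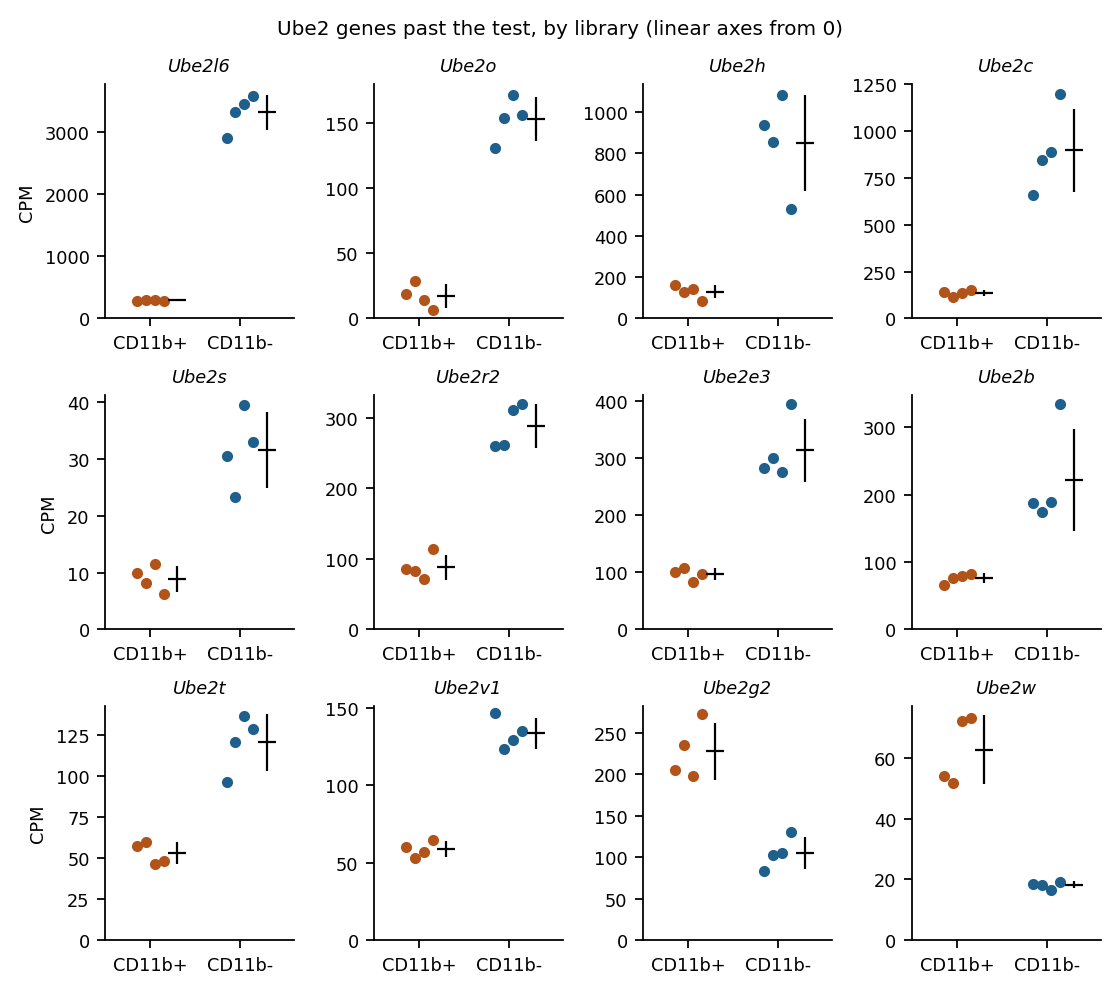
CPM (vertical axes, linear from 0) of the 12 called Ube2 genes in each library, CD11b+ left in orange and CD11b- right in blue, with the mean and SD (n = 4 each) beside the points. In all 12 panels the groups do not overlap; CD11b+ lies below CD11b- in 10 panels and above it for Ube2g2 and Ube2w.

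Ube2h and Ube2o, grouped here for their known part in red cell maturation, were both lower in CD11b+ cells. Ube2h supplies ubiquitin to the CTLH ligase complex and accumulates in maturing red cells. It measured 159.7, 129.8, 144.7 and 83.9 CPM in CD11b+ libraries against 936.7, 853.7, 1082.8 and 532.4 CPM in CD11b- libraries. Replicate 4 was the lowest library in each sort and the groups stayed apart, with a log2 fold change of -2.68 (SE 0.29, 6.42-fold lower in CD11b+ cells, edgeR adjusted p = 8.83e-05). Reads of Ube2h may be shared with 2 annotated near-identical copies. Ube2o, a large enzyme that acts as conjugating enzyme and ligase at once and clears ribosomal and other proteins from reticulocytes, measured 19.1, 28.6, 13.9 and 6.77 CPM in CD11b+ libraries and 130.6, 154.4, 171.6 and 156.3 CPM in CD11b- libraries. Its log2 fold change was -3.12 (SE 0.41, 8.69-fold lower in CD11b+ cells, edgeR adjusted p = 0.00029).

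The 16 erythroid markers were all lower in CD11b+ cells (100%, against 15.0% of all tested genes). Their log2 fold changes ran from -6.41 to -3.75, with a median of -5.34. The fitted log2 fold changes of Ube2o (-3.12) and Ube2h (-2.68) lay closer to 0 than those of the 16 markers, as did that of Ube2l6 (-3.47). How far the erythroid transcripts account for these Ube2 genes was not tested.

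Members of the CTLH complex, the ligase that Ube2h serves, moved in both directions: 6 of 11 were lower and 3 higher in CD11b+ cells. Their called share was 81.8%, against 29.7% of all tested genes, and their median log2 fold change was -0.96. Ranbp10, a scaffold subunit, measured 8.27 to 28.1 CPM in CD11b+ libraries and 246.2 to 477.7 CPM in CD11b- libraries, a log2 fold change of -4.23 (SE 0.44, edgeR adjusted p = 7.59e-05). Its paralog Ranbp9 was not called, with 7.80 to 17.5 CPM in CD11b+ libraries and 0.599 to 13.9 CPM in CD11b- libraries (log2 fold change 0.90, 95% interval -0.95 to 2.74, edgeR adjusted p = 0.48). Gid8, a core subunit with the most CPM of the list, lay at 699 to 1289 CPM in CD11b+ libraries against 2587 to 5464 CPM in CD11b- libraries (log2 fold change -1.83, edgeR adjusted p = 0.000831).

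The RING subunit genes of the complex went different ways. Rmnd5a lay at 17.2 to 31.3 CPM in CD11b+ libraries against 42.6 to 73.5 CPM in CD11b- libraries (log2 fold change -1.16, edgeR adjusted p = 0.0125). Its paralog Rmnd5b lay at 115.8 to 177.3 CPM in CD11b+ libraries against 32.7 to 68.4 CPM in CD11b- libraries (log2 fold change 1.52, edgeR adjusted p = 0.00143). Maea, the partner of both, was higher in CD11b+ cells at 103.6 to 141.7 CPM against 55.1 to 93.5 CPM in CD11b- cells (log2 fold change 0.73, edgeR adjusted p = 0.0312), a call lost in 5 of 8 fits without a single library. Wdr26 (log2 fold change -1.57), Mkln1 (-0.97) and Ypel5 (-0.96) were also lower and Armc8 (1.01) was higher in CD11b+ cells, with edgeR adjusted p from 0.000668 to 0.00293. Gid4, a substrate receptor, was not called (0.04, edgeR adjusted p = 0.926).

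**Figure D4:**
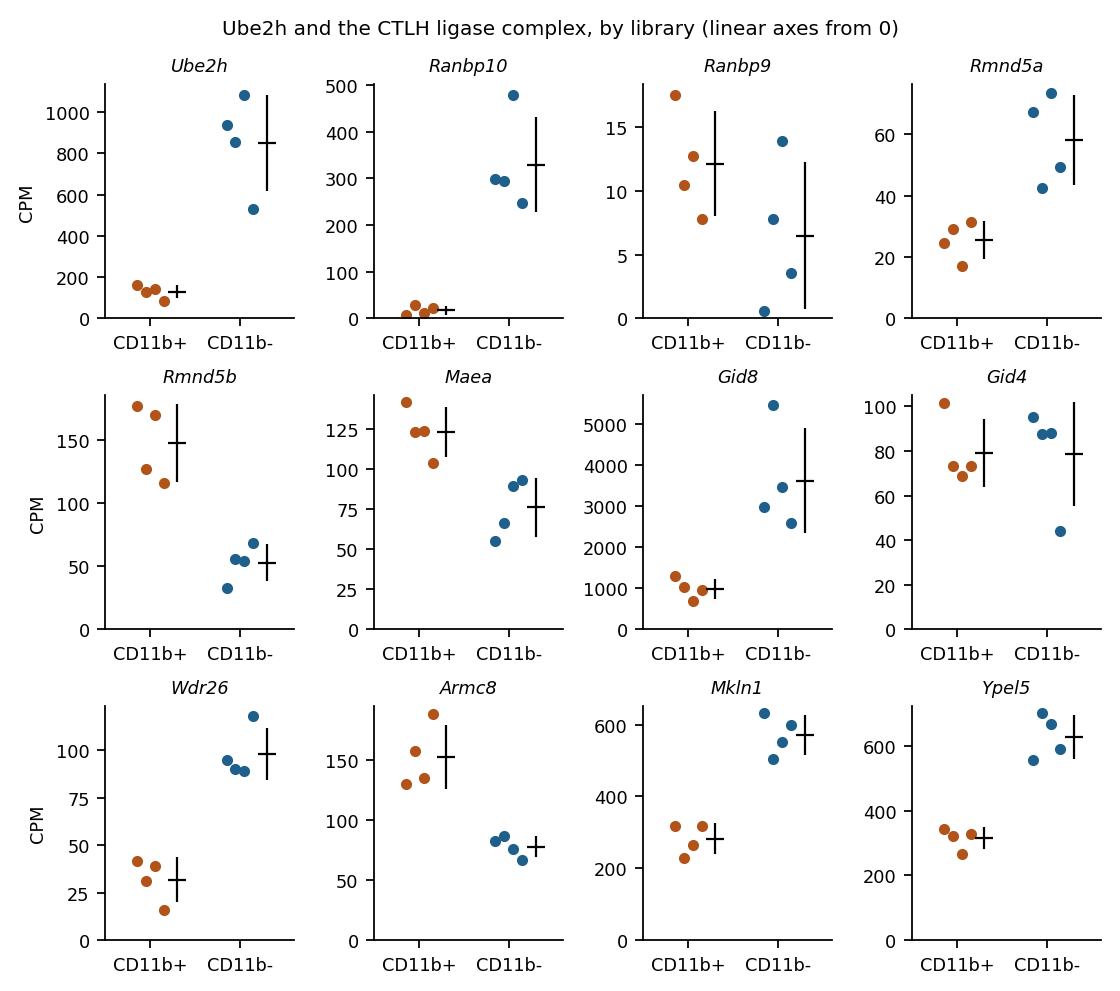
CPM (vertical axes, linear from 0) of Ube2h and the 11 genes of the CTLH ligase complex in each library, CD11b+ left in orange and CD11b- right in blue, with the mean and SD (n = 4 each) beside the points. Ranbp10, Gid8, Rmnd5a, Wdr26, Mkln1 and Ypel5 lie lower in CD11b+ libraries, as Ube2h does, while Rmnd5b, Maea and Armc8 lie higher and Ranbp9 and Gid4 overlap.

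The enzymes of chromatin and DNA repair split by gene. Ube2b and Ube2a are the mouse forms of yeast RAD6 and ubiquitinate histone H2B and the clamp PCNA. Ube2b was lower in CD11b+ cells at 65.1, 76.3, 78.7 and 82.1 CPM, against 187.8, 174.4, 189.7 and 334.1 CPM in CD11b- libraries. CD11b- replicate 4 stood well above the other CD11b- libraries, and the groups did not overlap without it either. The log2 fold change was -1.50 (SE 0.22, edgeR adjusted p = 0.00053), and -1.60 to -1.24 with single libraries left out. Ube2a, at 37.9, 50.7, 46.7 and 28.9 CPM in CD11b+ libraries and 38.7, 40.3, 16.4 and 49.9 CPM in CD11b- libraries, overlapped (log2 fold change 0.24, 95% interval -0.51 to 0.99). The ratio of Ube2b to Ube2a was 1.51 to 2.84 in CD11b+ libraries and 4.32 to 11.6 in CD11b- libraries (log2 difference -1.76, exact permutation p = 0.0286, adjusted 0.0449).

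Ube2t, the conjugating enzyme of the Fanconi anemia DNA crosslink repair pathway, measured 57.4, 59.5, 46.1 and 48.0 CPM in CD11b+ libraries against 96.2, 120.2, 136.2 and 128.6 CPM in CD11b- libraries. The groups did not overlap (log2 fold change -1.15, SE 0.19, edgeR adjusted p = 0.00125). Relative to the cell cycle sum Ube2t stood at 0.641% to 0.774% in CD11b+ libraries and 0.496% to 0.644% in CD11b- libraries, and this ratio did not pass the test (exact permutation p = 0.0571, adjusted 0.0786). Fancl, the ligase that Ube2t serves, was lower in CD11b+ cells at 1.40 to 4.43 CPM against 24.6 to 30.5 CPM in CD11b- cells (log2 fold change -3.12, edgeR adjusted p = 0.000527). Of 12 Fanconi and RAD6 partner genes 3 were lower and 3 higher in CD11b+ cells, with a median log2 fold change of -0.34. That is 50.0% called, against 29.7% of all tested genes. Fanca, a core complex subunit, was higher at 40.6 to 90.2 CPM in CD11b+ cells against 6.52 to 22.5 CPM in CD11b- cells (log2 fold change 2.39, edgeR adjusted p = 0.00229), as was Fancg (0.97, edgeR adjusted p = 0.0081). Fanci, which Ube2t and Fancl ubiquitinate, was lower in CD11b+ cells (log2 fold change -0.70, edgeR adjusted p = 0.0352), a call lost in 6 of 8 fits without a single library. Rad18, the ligase that pairs with Ube2a or Ube2b at stalled replication forks, was lower (log2 fold change -0.93, edgeR adjusted p = 0.00924). Without CD11b- replicates 1 and 2 the adjusted p of Fancg was 0.0517 and that of Rad18 was 0.0605.

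Ube2w, which attaches single ubiquitins to the N-terminus of proteins, was higher in CD11b+ cells. It measured 54.0, 51.8, 72.0 and 73.1 CPM in CD11b+ libraries and 18.7, 18.3, 16.6 and 19.3 CPM in CD11b- libraries. The CD11b- libraries were tightly grouped and all CD11b+ libraries lay above them (log2 fold change 1.83, SE 0.21, 3.55-fold, edgeR adjusted p = 0.000126). Of the 14 granulocyte markers 12 were higher in CD11b+ cells as well (85.7%), as were 4 of the 7 eosinophil markers (57.1%), against 14.6% of all tested genes. No marker of these lists was called lower, though the lowest log2 fold changes were -0.87 for granulocyte and -0.80 for eosinophil markers. The part of these cell types in the results for Ube2w and for Ube2g2 was not tested.

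Ube2g2, the second member higher in CD11b+ cells, works at the endoplasmic reticulum, where misfolded proteins are tagged for the proteasome. It measured 204.8, 235.3, 198.5 and 272.9 CPM in CD11b+ libraries against 83.6, 102.5, 104.8 and 130.2 CPM in CD11b- libraries. The groups did not overlap (log2 fold change 1.15, SE 0.18, 2.23-fold, edgeR adjusted p = 0.000802). The related Ube2g1, which builds K48-linked chains on cullin ligases, lay at 85.7 to 150.0 CPM in CD11b+ libraries and 78.2 to 122.5 CPM in CD11b- libraries and was not called (log2 fold change 0.35, 95% interval -0.10 to 0.81). The ratio of Ube2g2 to Ube2g1 was 1.37 to 2.32 in CD11b+ libraries and 0.800 to 1.34 in CD11b- libraries (log2 difference 0.84, exact permutation p = 0.0286, adjusted 0.0449).

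Of 8 tested genes on the list of ligases and partners that work with Ube2g2, 3 were lower in CD11b+ cells and the other 5 did not pass the test. Their median log2 fold change was -0.20, and 37.5% were called against 29.7% of all tested genes. Rnf139, a membrane ligase, was lower at 41.8 to 65.7 CPM in CD11b+ libraries against 209.1 to 407.1 CPM in CD11b- libraries (log2 fold change -2.50, edgeR adjusted p = 4.9e-05). Syvn1, another such ligase, was lower at 11.5 to 18.8 CPM in CD11b+ cells against 37.9 to 73.9 CPM in CD11b- cells (log2 fold change -1.56, edgeR adjusted p = 0.00355). Aup1, which recruits Ube2g2 to the membrane, was lower at 264.4 to 298.0 CPM in CD11b+ cells against 353.9 to 423.4 CPM in CD11b- cells (log2 fold change -0.48, edgeR adjusted p = 0.0141). A pair of genes of this list, named after their values were seen, lay higher in every CD11b+ library and just missed the threshold. Sel1l, the partner of Syvn1, lay at 130.6 to 214.8 CPM in CD11b+ libraries and 69.0 to 128.4 CPM in CD11b- libraries (log2 fold change 0.80, edgeR adjusted p = 0.0524). Derl2, a membrane protein of the same pathway, lay at 131.7 to 165.0 CPM in CD11b+ libraries and 107.8 to 126.5 CPM in CD11b- libraries (log2 fold change 0.40, edgeR adjusted p = 0.0519). Sel1l passed the test under 8 of the 18 alternatives and Derl2 under 1, DESeq2.

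The membrane-anchored Ube2j1 and Ube2j2 were not called. Ube2j1 lay at 104.9 to 131.3 CPM in CD11b+ libraries and 100.1 to 134.7 CPM in CD11b- libraries. Ube2j2 lay at 22.6 to 36.6 CPM in CD11b+ libraries and 29.3 to 44.0 CPM in CD11b- libraries. Their 95% intervals on the log2 scale ran from -0.34 to 0.41 for Ube2j1 and from -0.87 to 0.27 for Ube2j2. Their ratio within a library did separate, at 3.48 to 4.80 in CD11b+ cells and 2.89 to 3.41 in CD11b- cells (log2 difference 0.34, exact permutation p = 0.0286, adjusted 0.0449). Ube2k, which extends K48-linked chains, lay at 90.4 to 116.9 CPM in CD11b+ libraries and 78.4 to 121.5 CPM in CD11b- libraries (log2 fold change 0.08, 95% interval -0.28 to 0.43).

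Ube2r2, which like its paralog Cdc34 extends K48-linked chains on cullin ligases, was lower in CD11b+ cells, and Cdc34 was not called. Ube2r2 measured 85.1, 83.0, 71.2 and 113.6 CPM in CD11b+ libraries against 260.8, 262.0, 311.2 and 319.8 CPM in CD11b- libraries. All CD11b- libraries lay above all CD11b+ libraries (log2 fold change -1.67, SE 0.18, 3.19-fold lower in CD11b+ cells, edgeR adjusted p = 8.24e-05). Cdc34 lay at 107.9 to 121.1 CPM in CD11b+ libraries and 76.0 to 124.4 CPM in CD11b- libraries (log2 fold change 0.09, 95% interval -0.34 to 0.53). The ratio of Ube2r2 to Cdc34 was 0.646 to 1.02 in CD11b+ libraries and 2.42 to 3.43 in CD11b- libraries (log2 difference -1.81, exact permutation p = 0.0286, adjusted 0.0449).

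Of the Ube2d and Ube2e enzymes, which work with many RING ligases, 1 of 6 tested genes was called (16.7%, against 29.7% of all tested genes). Ube2e3 measured 100.8, 107.0, 82.2 and 97.1 CPM in CD11b+ libraries against 283.3, 300.9, 276.9 and 395.2 CPM in CD11b- libraries. The groups did not overlap, with CD11b- replicate 4 highest (log2 fold change -1.65, SE 0.16, 3.14-fold lower in CD11b+ cells, edgeR adjusted p = 4.23e-05). Its relative Ube2e1 had low counts, at 6.06 to 16.1 CPM in CD11b+ libraries and 5.17 to 7.26 CPM in CD11b- libraries, and was not called (log2 fold change 0.55, 95% interval -0.67 to 1.76). Reads of Ube2e1 may be shared with 1 annotated near-identical copy, and its exons overlap those of Nkiras1 on the other strand over 718 of 4457 bases, so its level is uncertain. The ratio of Ube2e3 to Ube2e1 was 6.02 to 17.7 in CD11b+ libraries and 38.2 to 58.2 in CD11b- libraries (log2 difference -2.09, exact permutation p = 0.0286, adjusted 0.0449). Ube2e2 lay at 1.29 to 3.03 CPM in CD11b+ libraries and at 3.38, 3.86, 0 and 0.585 CPM in CD11b- libraries, and was not called (log2 fold change 0.04, 95% interval -3.08 to 3.15).

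Ube2d3, the highest Ube2d gene per kilobase of exon, lay at 197.4 to 234.1 CPM in CD11b+ libraries and 134.8 to 220.8 CPM in CD11b- libraries and was not called (log2 fold change 0.23, 95% interval -0.10 to 0.56). Ube2d1 lay at 5.61 to 14.8 CPM in CD11b+ libraries and 1.98 to 9.74 CPM in CD11b- libraries (log2 fold change 0.78, 95% interval -0.57 to 2.13). Ube2d2a lay at 7.44 to 10.7 CPM in CD11b+ libraries and 4.02 to 13.1 CPM in CD11b- libraries (log2 fold change 0.32). Annotated near-identical copies number 3 for Ube2d2a and 4 for Ube2d3, so their levels are uncertain. Ube2d2b, which did not pass the filter, was at 0.0274, 0.0761, 0 and 0.271 CPM in CD11b+ libraries and at 3.56, 6.09, 4.36 and 0 CPM in CD11b- libraries. It was near the floor of detection in the CD11b+ libraries and in CD11b- replicate 4, and above it in the other CD11b- libraries. It was tested under 7 alternatives and was called lower in CD11b+ cells under 1 of them, without CD11b- replicate 4 (edgeR adjusted p = 0.0283).

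Of the enzymes that build K63-linked chains, used in signalling and repair, Ube2v1 was called. Ube2v1 is the catalytically inactive partner of Ube2n and measured 60.2, 53.1, 57.2 and 64.8 CPM in CD11b+ libraries against 146.3, 123.1, 129.1 and 135.3 CPM in CD11b- libraries. The groups were tight and apart (log2 fold change -1.14, SE 0.14, 2.20-fold lower in CD11b+ cells, edgeR adjusted p = 0.000185). Annotated near-identical copies number 5, and 1 of them, Gm20431, overlaps Ube2v1 on the same strand over 1673 of its 2721 exon bases, so reads may be shared. Ube2n, the active subunit, lay at 31.0 to 37.8 CPM in CD11b+ libraries and 28.7 to 53.5 CPM in CD11b- libraries and was not called (log2 fold change -0.12, 95% interval -0.64 to 0.40). The alternative partner Ube2v2 lay at 2.44 to 5.17 CPM in CD11b+ libraries and 3.64 to 6.26 CPM in CD11b- libraries. Near-identical annotated copies number 5 for Ube2n and 3 for Ube2v2, so their levels are uncertain as well. The ratio of Ube2v1 to Ube2v2 overlapped between groups at 12.5 to 21.8 in CD11b+ libraries and 19.7 to 35.4 in CD11b- libraries (exact permutation p = 0.0857, adjusted 0.105).

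Of 9 K63 ligases and partners 1 was higher and 1 lower in CD11b+ cells, with a median log2 fold change of 0.16. That is 22.2% called, against 29.7% of all tested genes. Otub1, an inhibitor of Ube2n that also cleaves K48-linked chains, was higher (log2 fold change 0.69, edgeR adjusted p = 0.0277), and Rnf8, a ligase of the DNA damage response, was lower (-0.91, edgeR adjusted p = 0.0221). Of the fits without 1 of the 8 libraries, 3 lost the call of Otub1 and 5 that of Rnf8.

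**Figure D5:**
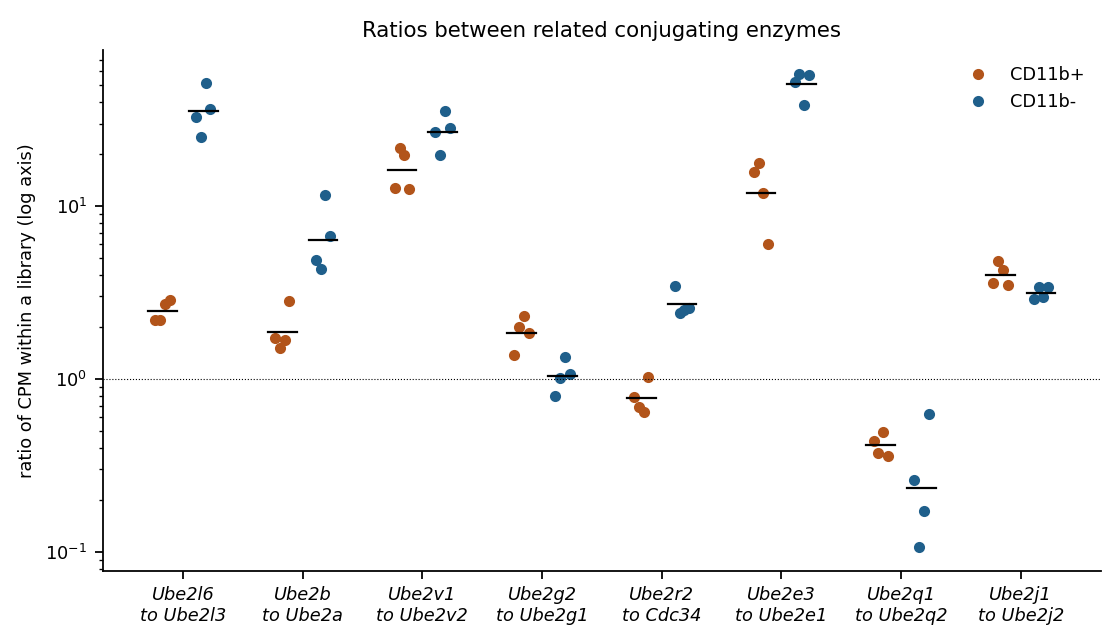
Ratio of CPM between related conjugating enzymes within each library (vertical axis, log scale), CD11b+ left in orange and CD11b- right in blue for each pair, with bars at the geometric mean of 4 libraries. The groups separate for 6 of the 8 pairs: Ube2l6 to Ube2l3, Ube2b to Ube2a, Ube2r2 to Cdc34 and Ube2e3 to Ube2e1 are lower in CD11b+ libraries, Ube2g2 to Ube2g1 and Ube2j1 to Ube2j2 are higher, and Ube2v1 to Ube2v2 and Ube2q1 to Ube2q2 overlap.

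The remaining members were not called. Ube2q1 measured 28.8, 20.8, 22.5 and 25.0 CPM in CD11b+ libraries against 12.5, 4.54, 5.53 and 18.2 CPM in CD11b- libraries. All CD11b+ values lay above all CD11b- values (log2 fold change 1.31, 95% interval 0.26 to 2.37, edgeR adjusted p = 0.0636). Ube2q2 lay at 45.5 to 69.5 CPM in CD11b+ libraries and 29.2 to 48.2 CPM in CD11b- libraries, with overlap (log2 fold change 0.68, edgeR adjusted p = 0.051). Ube2z, which takes ubiquitin from the activating enzyme Uba6, lay at 19.6 to 28.3 CPM in CD11b+ libraries and 5.50 to 24.3 CPM in CD11b- libraries (log2 fold change 0.46, edgeR adjusted p = 0.496). Ube2cbp was at 0, 5.68, 0.0627 and 0 CPM in CD11b+ libraries and at 1.44, 1.57, 1.17 and 4.39 CPM in CD11b- libraries. Its CD11b+ reads came almost wholly from replicate 2, without which the gene was called lower in CD11b+ cells (edgeR adjusted p = 0.0445, against 0.889 with all libraries). Ube2u was at 0 in all CD11b+ libraries and in 3 CD11b- libraries and at 1.57 CPM in CD11b- replicate 4.

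The summed level of all 34 Ube2 genes was 2425.9, 2389.3, 2280.4 and 2505.3 CPM in CD11b+ libraries and 6911.7, 7373.5, 7687.7 and 8125.7 CPM in CD11b- libraries. Most of this gap came from 3 genes. Ube2l6 made up 12.1% ± 0.779 of the sum in CD11b+ cells and 43.9% ± 1.35 in CD11b- cells (SD, n = 4 each), Ube2c made up 5.69% ± 0.547 in CD11b+ cells and 11.8% ± 2.15 in CD11b- cells, and Ube2h made up 5.43% ± 1.47 in CD11b+ cells and 11.4% ± 3.43 in CD11b- cells. The other 31 genes summed to 1843 ± 116 CPM in CD11b+ cells and 2466 ± 247 CPM in CD11b- cells.

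Levels were compared between genes per kilobase of exon, using GENCODE M21 exon lengths. These lengths join the exons of all annotated transcripts of a gene, so the ranks depend on them as well as on the counts. Ube2d3, with a mean of 211 CPM in CD11b+ cells but 24499 exon bases, ranked 18 there. In CD11b+ cells the 5 highest mean levels were 145.7 ± 3.82 CPM per kilobase for Ube2l6, 93.7 ± 14.0 for Ube2g2, 53.9 ± 7.32 for Ube2m, 52.6 ± 5.80 for Ube2c and 35.5 ± 3.46 for Ube2b (SD, n = 4). Ube2m and Ube2c did not differ beyond their spread. In CD11b- cells the 5 highest were 1658 ± 144 CPM per kilobase for Ube2l6, 345 ± 85.6 for Ube2c, 178 ± 48.7 for Ube2h, 104 ± 35.5 for Ube2b and 71.6 ± 12.5 for Ube2e3 (SD, n = 4), the last followed within its spread by Ube2r2 at 68.9 ± 7.51. Ube2o ranked 25 of 34 in CD11b+ cells and 11 in CD11b- cells. Ube2w ranked 16 in CD11b+ cells and 25 in CD11b- cells, and Ube2g2 ranked 2 in CD11b+ cells and 9 in CD11b- cells.

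Upstream of the conjugating enzymes, 2 of the 4 ubiquitin genes were lower in CD11b+ cells, with a median log2 fold change of -0.77 over the 4. That is 50.0% lower, against 15.0% of all tested genes. Ubb, which encodes a chain of ubiquitins and had the most CPM, measured 1377.0, 1175.3, 1353.3 and 1545.7 CPM in CD11b+ libraries against 2320.6, 2209.8, 2522.7 and 2513.2 CPM in CD11b- libraries (log2 fold change -0.77, edgeR adjusted p = 0.00241). Of 8 activating enzyme genes 1 was higher and 1 lower in CD11b+ cells, the lower one being Uba7. Their median log2 fold change was -0.003, and 25.0% were called against 29.7% of all tested genes. The main ubiquitin-activating enzyme Uba1, named after its value was seen, lay at 193.2 to 214.6 CPM in CD11b+ libraries and 118.0 to 174.6 CPM in CD11b- libraries without overlap, and just missed the threshold (log2 fold change 0.47, edgeR adjusted p = 0.0508). Sae1, a subunit of the SUMO-activating enzyme, had the most CPM of the list and was not called (0.04, edgeR adjusted p = 0.871).

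Of 8 conjugating enzyme genes without a Ube2 symbol, 3 were higher in CD11b+ cells and the other 5 did not pass the test. Their median log2 fold change was 0.63, and 37.5% were called against 29.7% of all tested genes. Atg3, which attaches LC3 proteins to lipid in autophagy, measured 288.4, 252.9, 300.4 and 289.4 CPM in CD11b+ libraries against 86.8, 48.5, 55.4 and 102.4 CPM in CD11b- libraries (log2 fold change 2.00, SE 0.23, edgeR adjusted p = 0.000116). Aktip, an inactive relative that binds motor adaptors, was higher with a log2 fold change of 1.38 (edgeR adjusted p = 0.013). Birc6, a giant enzyme that blocks cell death, was higher with a log2 fold change of 0.86 (edgeR adjusted p = 0.0447), a call lost in 6 of 8 fits without a single library. Over the 105 tested genes of all 11 pathway lists, 14 were higher and 29 lower in CD11b+ cells, or 41.0% called against 29.7% of all tested genes.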

How the data were processed

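Whole-number counts per gene symbol were deposited for each of 8 libraries, and the authors also deposited a CPM table over all libraries. The counts scaled to their totals matched the deposited CPM within 0.0005. Per the submitters' processing notes the build was mm9 and the tools TopHat2, DESeq2 and HTSeq 0.10.0, each without a stated role. How strand and reads with several matches were handled is not given in the sources used here, and reads of overlapping genes cannot be told apart. Of 18817 rows, 27 carried numbers in place of symbols (0.205% to 0.514% of counts) and were left out. CPM was computed from named genes, and a floor covers counting error only.

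Counts were tested with edgeR 4.0.16 in R 4.3.3: TMM scaling, filterByExpr (minimum count 10, minimum total 15) and the quasi-likelihood test, with a prior count of 0.125 and no covariate. P-values were adjusted by Benjamini-Hochberg over 11965 genes, at 0.05. The F statistic and the fold change together gave each standard error. The edgeR p-values set the difference between groups against the variation among biological replicates, estimated with information shared across genes. Ratios within libraries were added after the data were examined and compared by two-sided exact permutation tests (SciPy 1.17.1). Those of a called gene to an uncalled relative are no support independent of the edgeR calls. The adjusted permutation p of 0.0449 depends on how many of the 11 chosen ratios reached the smallest p.

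The Ube2 genes and all lists were chosen with earlier results of these data known. The rule for named genes took every Ube2 gene and, of each pathway list, up to 4 called members with the smallest adjusted p and the most abundant member; some of these are not reported here, though they stay in all counts and medians. The whole ISG15 and CTLH lists were given after their values were seen. Exon lengths, overlaps and near-identical copies (at least 95% identity over at least 200 coding bases) came from GENCODE M21, which is of another build, so none of its coordinates are printed. Such copies were found for 12 Ube2 genes, among the called ones Ube2h and Ube2v1. The other 10 were not called, among them Ube2d2a, Ube2d3, Ube2e1, Ube2f, Ube2j2, Ube2l3, Ube2n, Ube2q2 and Ube2v2. Reads may be shared with the copies, so levels and ratios of these genes are uncertain. Promoters came from RefSeq. Alternatives were RLE size factors, no scaling, a stricter filter (CPM 10 or more in 4 libraries), no filter, DESeq2 1.42.0, limma 3.58.1 on log2(CPM + 1), voom with library weights, a minimum of 2-fold, the replicate number as a block, and leaving out each library, or CD11b- replicates 1 and 2, the pair with most Mpo.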

Additional observations from a re-analysis of the deposited data

Results flagged for a closer look

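A library stood far from the other 3 of its group in 15 of 177 groups of 4 values examined (Dixon's test at the 95% level), and chance alone flags about 1 in 20 groups. Among Ube2 genes these were Ube2b at 334.1 CPM in CD11b- replicate 4 (others 174.4 to 189.7), Ube2e1 at 16.1 CPM in CD11b+ replicate 4 (others 6.06 to 6.92) and Ube2f at 65.6 CPM in CD11b+ replicate 3 (others 56.4 to 57.6). Ube2cbp stood apart in each sort, at 5.68 CPM in CD11b+ replicate 2 (others 0 to 0.0627) and at 4.39 CPM in CD11b- replicate 4 (others 1.17 to 1.57). Ube2u had 1.57 CPM in CD11b- replicate 4 and 0 in the other CD11b- libraries. The ratio of Ube2b to Ube2a was 2.84 in CD11b+ replicate 4 (others 1.51 to 1.72), and that of Ube2r2 to Cdc34 was 3.43 in CD11b- replicate 1 (others 2.42 to 2.58).

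Among pathway genes, CD11b+ replicate 3 stood apart for Aup1 at 298.0 CPM (others 264.4 to 268.7) and for Fancg at 108.3 CPM (others 63.6 to 68.2). Senp3 was at 19.1 CPM in CD11b+ replicate 4 (others 27.7 to 28.8) and Gid4 at 101.7 CPM in CD11b+ replicate 1 (others 68.6 to 73.3). In CD11b- cells, Gid4 was at 44.2 CPM in replicate 4 (others 87.6 to 95.4), Rnf8 at 29.3 CPM in replicate 3 (others 45.9 to 48.9) and Sumo3 at 268.3 CPM in replicate 1 (others 149.5 to 153.6). Their causes were not tested.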

How the results depend on the processing

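The 12 called Ube2 genes kept their call and direction in all 204 values from the 17 alternatives other than a minimum of 2-fold, and 9 of them passed that minimum (not Ube2g2, Ube2v1 and Ube2t). With it 1 Ube2 gene was called higher in CD11b+ cells, and over all genes 860 were higher and 914 lower. DESeq2 called 4 Ube2 genes higher, and 2094 of all genes against 1751. Ube2q1 passed under 4 alternatives and Ube2q2 under 5, and Ube2f passed without CD11b- replicate 2 (adjusted p 0.0473). Directions turned for uncalled genes near 0. With no scaling the log2 fold change was -0.014 for Nedd8, -0.011 for Sae1, -0.038 for Ube2e2 and -0.004 for Ube2j1. With a CPM of at least 10 it was -0.005 for Nedd8, -0.002 for Sae1 and -0.003 for Ube2j1. With limma it was -0.023 for Nedd8 and -0.002 for Sae1. Without the CD11b- pair highest in Mpo it was -0.046 for Sae1, -0.148 for Ube2j1 and 0.077 for Ube2n. Leaving out single libraries gave -0.146 to 0.154 for Gid4, -0.043 to 0.118 for Nedd8, -0.002 to 0.123 for Sae1, -6.356 to 0.109 for Ube2cbp (which depends on the prior count), -0.37 to 0.631 for Ube2e2, -0.031 to 0.137 for Ube2j1 and -0.208 to 0.048 for Ube2n. The causes were not tested. No scaling moved the median of all genes to -0.057 and no filter to -0.151.

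The replicate numbers did not clearly pair the libraries. Same-numbered libraries correlated at 0.02, 0.036, 0.02 and 0.064 in their deviations, for each CD11b- library its highest value. Differently numbered pairs ranged from -0.054 to 0.028. CD11b+ replicate 1 correlated more with CD11b- replicate 2 (0.024), and CD11b+ replicate 3 with CD11b- replicate 4 (0.028). Such small values cannot decide whether the numbers mark pairs. With the replicate number as a block, 2 Ube2 genes were higher and 10 lower in CD11b+ cells, and of all genes 1585 were higher and 1610 lower. Of the named genes, 6 were then no longer called: Fanci (adjusted p 0.0653), Maea (0.0699), Ranbp2 (0.0826), Rmnd5a (0.0591), Rnf8 (0.0517) and Senp3 (0.0605). The anaphase-promoting complex list then had 5 lower genes against 6, and the Fanconi and RAD6 list 2 higher genes against 3. With a library or the Mpo pair left out, 0 of 99 ratio differences turned, and p could not go below 0.0571 or 0.133. The CD11b+ libraries together held 1484 counts of Ube2s, the called Ube2 gene with the fewest, 227 of Ube2cbp, 310 of Ube2e2 and 15 of Ube2d2b.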
